A study of Rattus norvegicus with 24 samples.

Results

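The genes of peroxisome biogenesis and metabolism described here are 32 listed genes of peroxisomal metabolism and every gene of the array's annotation whose symbol is Pex followed by a number, 44 measured genes of 14217 in all. Of the listed genes 30 had a probe set of their own, and Ddo and Pipox were not analysed here. The annotation named 14 Pex genes. One of these, Pex5l, encodes a regulator of neuronal ion channels in mammals and is a member by its symbol only. Where several probe sets name a gene, the brightest on average stands for it. The 44 genes came from 24 samples of primary rat hepatocytes in collagen sandwich culture.

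Treated cells received a piperazine designer drug for 24 h, at 625 µM BZP, 35 µM TFMPP, 522 µM MeOPP or 467 µM MDBP, each of which the labels call the drug's EC20. Every treated sample has a control with 0.1 percent DMSO that its label names, which gives 8 groups of 3 samples and 12 pairs. BZP and MDBP are benzylpiperazines, and TFMPP and MeOPP are phenylpiperazines. The labels name no strain, animal or culture, so p-values measure no more than the spread between these samples, and that spread may be technical.

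Peroxisomes are small organelles of the hepatocyte that shorten very long and branched fatty acids, oxidise 2-hydroxy acids and D-amino acids, detoxify glyoxylate and begin the synthesis of ether lipids. Their oxidases make hydrogen peroxide, which catalase removes. Proteins called peroxins build the organelle by inserting its membrane proteins, importing its enzymes from the cytosol and dividing it. In rodent liver many of these genes are known targets of PPAR alpha, the receptor of peroxisome proliferators.

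Expression was read as log2 values from 1 array per sample, and a change is the log2 value of a treated array minus that of its DMSO control. A change was called at a limma adjusted p under 0.05 (Benjamini-Hochberg over 31042 probe sets). No filter on low values was used. Abcd2, Far1 and Pex5l had mean log2 values of 2.64, 2.41 and 3.01, below the value of 5 that served as a limit for dim probe sets. Hepatocyte markers averaged 12.57 to 13.02 over treated arrays and 12.82 to 13.07 over DMSO arrays (7 of 8 markers measured; Ttr, Cps1 and Hnf4a fell in the mean of the 4 drugs and 4 did not pass). The 12 DMSO arrays fell into 5 clusters of similar profile, which no label names. Cluster 1 held the first controls of all drugs, cluster 2 the second controls of BZP, TFMPP and MeOPP, cluster 3 the third controls of BZP and MDBP, cluster 4 the third controls of TFMPP and MeOPP, and cluster 5 the second control of MDBP. Pairs of 1 cluster may share cells, which was not tested; the SEs and p-values over 12 pairs treat them as independent, and values with 1 per cluster are given where they change a call.

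Most peroxisomal enzymes fell, and the Pex genes had a smaller median change. In the mean of the 4 drugs, 21 of 30 metabolic genes fell, 2 rose and 7 did not pass the test. Among all genes 11.9 percent fell and 18.0 percent rose in the same comparison. Of the 14 Pex genes 7 fell, 0 rose by limma (0 at an unadjusted p under 0.05) and 7 did not pass. The median change was -0.42 for the metabolic genes, -0.18 for the Pex genes and 0.012 for all genes. The members were chosen with results of these data known, so neither list has a test of its own.

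Without the pair terms the counts of genes that fell were 12 metabolic and 2 Pex genes, and with 1 value per control cluster they were 20 and 4. Without cluster 3, 19 metabolic and 4 Pex genes fell. Of all genes, 1218 were called in either direction without the pair terms, 2733 with 1 value per cluster and 3611 without cluster 3, against 4248 with all pairs and their terms. These are bulk samples, in which fewer cells of a type and less RNA per cell cannot be told apart.

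**Figure D1:**
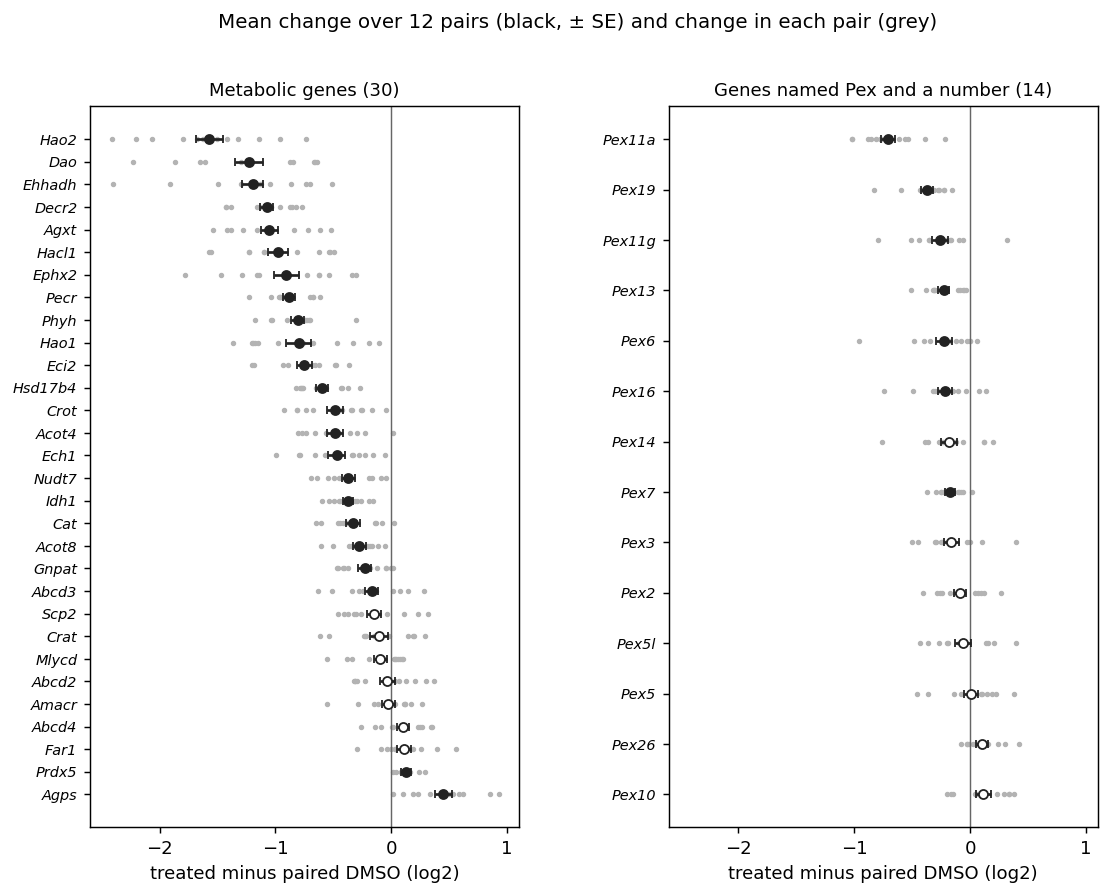
Change of each of the 44 genes on the log2 scale, with metabolic genes on the left and Pex genes on the right; grey points are the 12 pairs, and black points are the mean of the 4 drugs ± SE, filled where the limma adjusted p was under 0.05. Metabolic means run from -1.57 (Hao2) to 0.45 (Agps), and Pex means from -0.71 (Pex11a) to 0.11 (Pex10).

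The metabolic median was below the Pex median in 12 of 12 pairs. Metabolic medians lay at -0.63 to -0.19 over the pairs, Pex medians at -0.38 to 0.0024 and the medians of all genes at -0.0027 to 0.031. By control cluster the metabolic medians were -0.60 to -0.29 and the Pex medians -0.36 to -0.11. The gap was narrowest in the second MDBP pair, at -0.29 for metabolic and -0.26 for Pex genes. The Pex median was above 0 only in the first MDBP pair, at 0.0024.

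**Figure D2:**
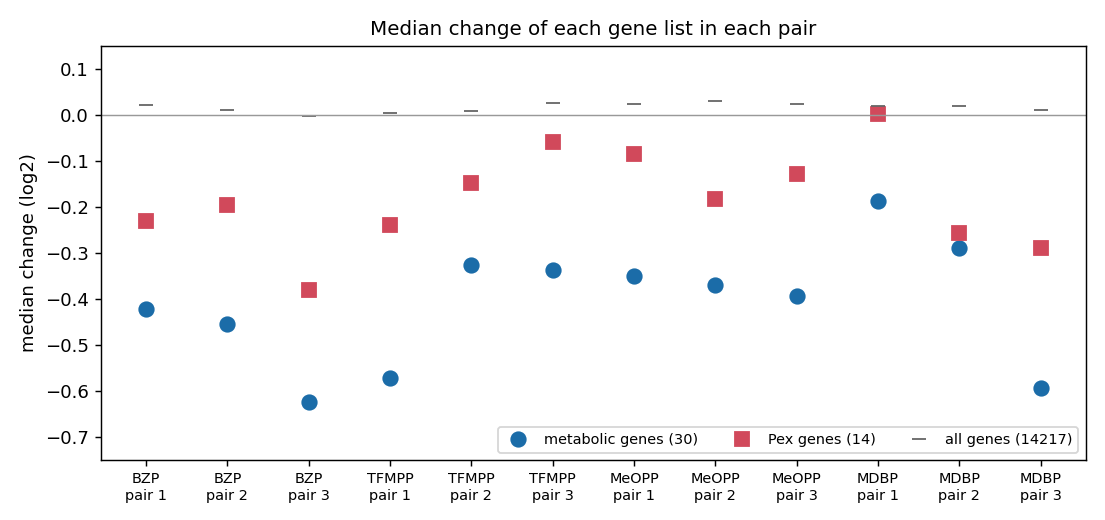
Median change on the log2 scale in each of the 12 pairs, grouped by drug, for the 30 metabolic genes (circles), the 14 Pex genes (squares) and all 14217 genes (dashes). The circles lie below the squares in all 12 pairs.

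All 4 enzymes of glyoxylate and amino acid handling fell. Hao2 oxidises long-chain 2-hydroxy acids and Dao oxidises D-amino acids. Agxt transaminates glyoxylate, and Hao1 makes it from glycolate. Hao2 stood at 4.93, 5.67 and 6.74 on the log2 scale in treated arrays, against 5.73, 7.15 and 8.53 in DMSO arrays (lowest, median and highest of 12 each). The ranges overlapped, and each treated array lay below its own control. Its changes were -1.50, -2.20 and -1.80 with BZP and -1.42, -1.63 and -0.96 with TFMPP. They were -2.06, -1.32 and -0.74 with MeOPP and -1.14, -2.41 and -1.67 with MDBP. The mean was -1.57 ± 0.11 (SE, n = 12 pairs; 2.97-fold lower; limma adjusted p = 6.46e-08).

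Dao stood at 4.31, 4.74 and 6.45 on the log2 scale in treated arrays, against 5.14, 5.87 and 8.67 in DMSO arrays (lowest, median and highest of 12 each). There was overlap between the groups, and 8 of 12 treated arrays lay below the lowest control. Its changes were -0.64, -0.87 and -2.23 with BZP and -1.30, -1.61 and -1.23 with TFMPP. The remaining values were -0.66, -0.85 and -1.20 with MeOPP and -0.66, -1.65 and -1.87 with MDBP. The deepest fall was in the third BZP pair and the mean was -1.23 ± 0.12 (SE, n = 12 pairs; limma adjusted p = 1.95e-06, and 0.0626 without the pair terms). Agxt stood at 6.19, 6.49 and 7.17 on the log2 scale in treated arrays, against 6.87, 7.70 and 8.67 in DMSO arrays (lowest, median and highest of 12 each). The groups overlapped, with 8 of 12 treated arrays below the lowest control. It changed by -1.16, -1.28 and -1.54 with BZP and -1.08, -0.71 and -0.61 with TFMPP. It changed by -0.84, -1.04 and -1.04 with MeOPP and -0.52, -1.42 and -1.38 with MDBP, and every pair was lower, with a mean of -1.05 ± 0.074 (SE, n = 12 pairs; limma adjusted p = 4.57e-08). Hao1 changed by -0.80 ± 0.11 in the mean (limma adjusted p = 4.66e-05, and 0.218 without the pair terms), with pairs from -1.37 to -0.10.

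Peroxisomal beta-oxidation removes acetyl units in turn, and its auxiliary enzymes reshape double bonds first. Ehhadh is the bifunctional hydratase and dehydrogenase for straight chains and a classic PPAR alpha target in rodents. Hsd17b4 is the bifunctional enzyme of the other stereochemical route. Decr2, Pecr, Eci2 and Ech1 reduce or move double bonds. Of the 8 genes 6 fell, with a median of -0.68.

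Ehhadh stood at 5.10, 5.55 and 6.52 on the log2 scale in treated arrays, against 6.02, 6.71 and 8.63 in DMSO arrays (lowest, median and highest of 12 each). The groups overlapped, with 9 of 12 treated arrays below the lowest control. Its changes were -1.49, -1.29 and -2.40 with BZP and -0.70, -0.52 and -0.87 with TFMPP. Under the remaining drugs they were -1.13, -1.04 and -0.74 with MeOPP and -1.13, -1.16 and -1.91 with MDBP. It fell in every pair, with its smallest estimate under TFMPP, and the mean was -1.20 ± 0.090 (SE, n = 12 pairs; 2.29-fold lower; limma adjusted p = 8.92e-08). Decr2 stood at 7.56, 7.81 and 8.49 on the log2 scale in treated arrays, against 8.53, 9.00 and 9.87 in DMSO arrays (lowest, median and highest of 12 each). Treated and control arrays of Decr2 did not overlap. Its changes were -1.13, -1.43 and -1.43 with BZP and -1.04, -0.77 and -0.85 with TFMPP. They came to -0.96, -1.16 and -0.88 with MeOPP and -0.82, -1.04 and -1.38 with MDBP. The mean was -1.07 ± 0.056 (SE, n = 12 pairs; 2.11-fold lower; limma adjusted p = 2.14e-09).

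Eci2 was the other member without overlap. It stood at 9.03, 9.29 and 9.65 on the log2 scale in treated arrays, against 9.82, 9.97 and 10.83 in DMSO arrays (lowest, median and highest of 12 each). Complete separation of this kind, with treated arrays lower, was found in 2 of 30 metabolic genes and 0 of 14 Pex genes, and in 0.134 percent of all genes. Treated arrays above all controls were found in 0 of the 44 members and 0.281 percent of all genes, so the groups overlapped in each of the other 42. Eci2 changed by -0.75 ± 0.065, Pecr by -0.88 ± 0.052, Hsd17b4 by -0.60 ± 0.051 and Ech1 by -0.47 ± 0.072, each lower in 12 of 12 pairs (limma adjusted p of 0.000159 or less). Amacr, the racemase that readies branched chains, stood at -0.025 ± 0.058 (adjusted p = 0.831). Scp2, whose longer product is the thiolase for branched chains, stood at -0.15 ± 0.058 (limma adjusted p = 0.0812). Its second probe set fell by 0.36 (limma adjusted p = 0.000227), so the probe sets of Scp2 disagree. The average of both passed, at an adjusted p of 0.00275. The first probe set passed with dim probe sets left out (0.0497), with the trend and robust prior (0.0485), without the first MDBP pair (0.0346) and without cluster 1 (0.0483).

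**Figure D3:**
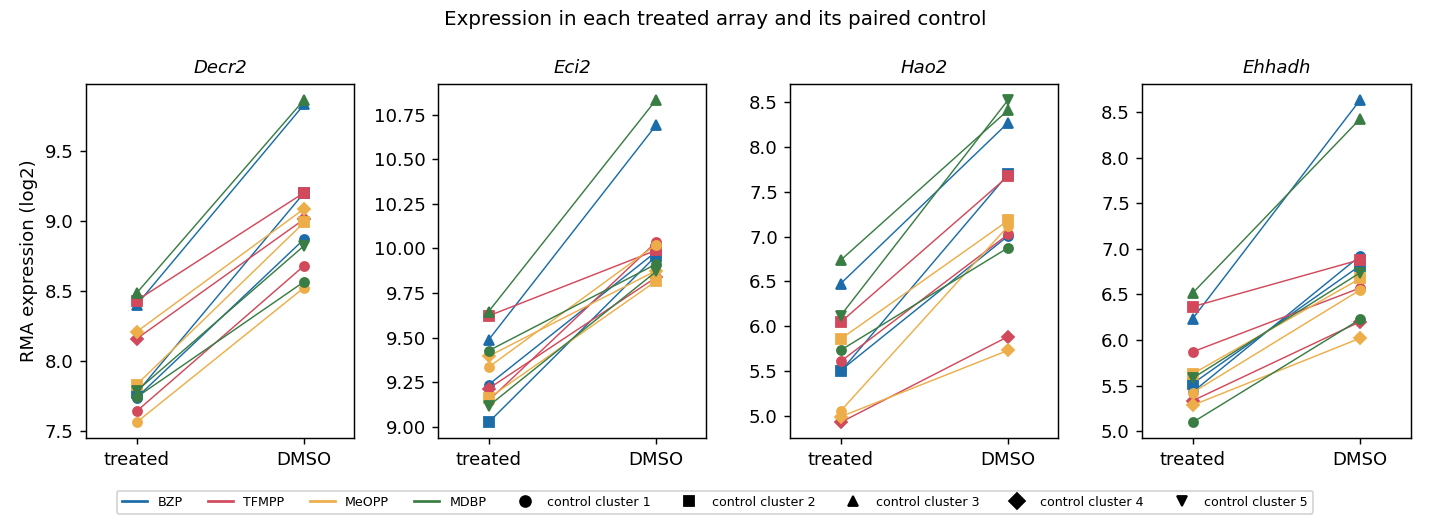
RMA expression (log2) of Decr2, Eci2, Hao2 and Ehhadh in each treated array (left) and its paired DMSO control (right), joined by a line; colours are drugs, symbols are the 5 clusters of control arrays, and each panel has its own scale. All lines rise toward the control. Treated Decr2 reaches 8.49 at most, against 8.53 at least in DMSO, and Hao2 and Ehhadh overlap.

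Both enzymes of alpha-oxidation, which removes a single carbon from phytanic acid, fell with each drug. Phyh is the hydroxylase and Hacl1 the lyase of the pathway. Phyh stood at 10.32, 10.74 and 11.54 on the log2 scale in treated arrays, against 11.33, 11.63 and 11.91 in DMSO arrays (lowest, median and highest of 12 each). There was overlap between the groups, and 11 of 12 treated arrays lay below the lowest control. It changed by -0.81 ± 0.058 in the mean (SE, n = 12 pairs; limma adjusted p = 6.21e-08). Its second probe set changed by -0.99. Hacl1 changed by -0.98 ± 0.089 (limma adjusted p = 7.6e-07), lower in 12 of 12 pairs.

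Of the enzymes that release or hand on shortened chains 4 fell. Crot, which loads octanoyl units on carnitine, changed by -0.48 ± 0.068. Acot4, a thioesterase of succinyl and longer CoA esters, changed by -0.48 ± 0.068. Nudt7, a CoA diphosphatase, changed by -0.37 ± 0.056, and Acot8, a thioesterase, by -0.28 ± 0.054 (SE, n = 12 pairs). All 4 passed with the pair terms and lost the call without them (limma adjusted p from 0.0632 for Crot to 0.61 for Acot4). Crat, the carnitine acetyltransferase, stood at -0.11 ± 0.075 and Mlycd, the malonyl-CoA decarboxylase, at -0.093 ± 0.058, and neither passed (adjusted p = 0.371 and 0.306).

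Among antioxidant and NADPH genes Ephx2 fell most. This enzyme is the soluble epoxide hydrolase, found in cytosol and peroxisomes, and it changed by -0.91 ± 0.11 (SE, n = 12 pairs; limma adjusted p = 1.64e-05, and 0.0517 without the pair terms). Idh1, which makes NADPH, changed by -0.37 ± 0.041 and was lower in 12 of 12 pairs (limma adjusted p = 5.55e-06). Cat, the catalase, changed by -0.33 ± 0.062, lower in 11 of 12 pairs (limma adjusted p = 0.000864). Prdx5, a peroxiredoxin, stood at 11.37, 11.52 and 11.67 on the log2 scale in treated arrays, against 11.34, 11.37 and 11.45 in DMSO arrays (lowest, median and highest of 12 each). The groups overlapped, with 9 of 12 treated arrays above the highest control. Its changes were 0.10, 0.29 and 0.093 with BZP and 0.013, 0.15 and 0.037 with TFMPP. The other pairs gave 0.10, 0.16 and 0.14 with MeOPP and 0.24, 0.080 and 0.084 with MDBP. It rose by 0.12 ± 0.042 (limma adjusted p = 0.0461), higher in 12 of 12 pairs, but the call was lost without any single pair, at adjusted p of 0.05 to 0.107, and with 1 value per control cluster (0.186).

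PPAR alpha binds direct repeats of a half-site, so promoters were searched on both strands for AGGTCA, any 1 base and AGGTCA again, with at most 2 mismatches in all. RefSeq windows of 300 bases on build GRCr8, from 250 bases before to 50 after the gene's start, were found for 39 of 44 members. The repeat was in 5 of 28 metabolic genes (Amacr, Crat, Acot4, Acot8 and Cat), in 0 of 11 Pex genes and in 3.77 percent of all 33469 windows. A member counted if any of its windows matched, while the last share counts single windows, so the units differ. Of these 5 genes Acot4, Acot8 and Cat fell, and Amacr and Crat did not pass the test. Hao2, Dao, Ehhadh, Decr2, Agxt and Pex11a held no match in this window. The windows of the 3 that fell are shown from 5′ to 3′ on the gene's strand, with the match in capitals. They lie at chr6:109399604-109399903 on the plus strand, chr3:173962139-173962438 on the minus strand and chr3:110329477-110329776 on the minus strand.
Acot4: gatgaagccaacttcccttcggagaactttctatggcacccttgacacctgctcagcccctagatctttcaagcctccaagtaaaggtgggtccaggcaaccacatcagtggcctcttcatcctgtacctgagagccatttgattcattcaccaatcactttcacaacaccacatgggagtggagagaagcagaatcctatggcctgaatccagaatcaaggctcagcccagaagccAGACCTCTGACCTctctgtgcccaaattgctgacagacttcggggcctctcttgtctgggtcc
Acot8: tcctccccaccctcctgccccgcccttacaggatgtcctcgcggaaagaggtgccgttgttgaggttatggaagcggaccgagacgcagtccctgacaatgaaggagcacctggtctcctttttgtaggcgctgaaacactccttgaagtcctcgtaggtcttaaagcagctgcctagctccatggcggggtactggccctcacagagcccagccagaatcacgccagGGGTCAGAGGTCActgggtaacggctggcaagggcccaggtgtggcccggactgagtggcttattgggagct
Cat: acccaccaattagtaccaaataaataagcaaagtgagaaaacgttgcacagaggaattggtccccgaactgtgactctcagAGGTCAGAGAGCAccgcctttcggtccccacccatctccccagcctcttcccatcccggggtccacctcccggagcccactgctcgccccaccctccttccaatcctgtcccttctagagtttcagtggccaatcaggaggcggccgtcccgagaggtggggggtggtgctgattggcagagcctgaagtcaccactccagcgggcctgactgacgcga
Relative to the gene's start the match begins at -13 in Acot4, on the opposite strand and with 1 mismatch, at -22 in Acot8 with 1 mismatch, and at -169 in Cat with 2. A match describes the letters only, does not show which receptor would bind there, and is no measured binding.

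Of the ether lipid genes Agps rose and Gnpat fell. Gnpat and Agps catalyse consecutive steps of plasmalogen synthesis inside the peroxisome, and Far1 supplies the fatty alcohol. Agps stood at 5.78, 6.32 and 6.79 on the log2 scale in treated arrays, against 5.22, 6.00 and 6.16 in DMSO arrays (lowest, median and highest of 12 each). There was overlap between the groups, and 8 of 12 treated arrays lay above the highest control. Its changes were 0.62, 0.53 and 0.50 with BZP and 0.23, 0.33 and 0.19 with TFMPP. Those of the remaining drugs were 0.58, 0.85 and 0.015 with MeOPP and 0.10, 0.52 and 0.93 with MDBP, so it was higher in all 12 pairs. It rose by 0.45 ± 0.073 in the mean (SE, n = 12 pairs; 1.37-fold; limma adjusted p = 0.000273). Gnpat changed by -0.23 ± 0.059 (limma adjusted p = 0.00909, 0.35 without the pair terms and 0.0522 without cluster 3), and the dim Far1 stood at 0.11 ± 0.059 (adjusted p = 0.217).

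Carriers of the ABC family admit fatty acyl-CoA to the peroxisome. Abcd3, the abundant one in liver, changed by -0.17 ± 0.055 (limma adjusted p = 0.0381). That call was lost without the pair terms (0.56), with 1 value per control cluster (0.272), and without any 1 of 7 pairs, namely pair 3 of BZP, pairs 1 and 2 of TFMPP and of MeOPP, and pairs 2 and 3 of MDBP (0.0533 to 0.102), and without cluster 1, 2, 3 or 5 (0.0533 to 0.191). Abcd2 stood at -0.034 ± 0.067 and Abcd4, a lysosomal cobalamin carrier of the same family, at 0.10 ± 0.054. Neither passed (adjusted p = 0.789 and 0.226).

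Both Pex11 genes fell, and Pex11a had the largest change of the peroxins. Pex11a elongates and divides peroxisomes and is induced by PPAR alpha ligands in rodents. It stood at 7.66, 8.14 and 8.80 on the log2 scale in treated arrays, against 8.54, 8.75 and 9.18 in DMSO arrays (lowest, median and highest of 12 each). Of the treated arrays 9 of 12 lay below the lowest control, and the groups overlapped. Its changes were -0.82, -0.76 and -1.02 with BZP and -0.62, -0.21 and -0.54 with TFMPP. The rest came to -0.86, -0.88 and -0.56 with MeOPP and -0.78, -0.39 and -1.02 with MDBP. Every pair was lower, and the mean was -0.71 ± 0.060 (SE, n = 12 pairs; 1.63-fold lower; limma adjusted p = 3.51e-07). A second probe set changed by -0.79. Its paralog Pex11g stood at 5.39, 5.78 and 6.33 on the log2 scale in treated arrays, against 5.47, 5.93 and 7.02 in DMSO arrays (lowest, median and highest of 12 each). There was overlap between the groups, and 1 of 12 treated arrays lay below the lowest control. It changed by -0.26 ± 0.068, with -0.16, -0.28 and -0.79 with BZP and -0.51, -0.35 and -0.21 with TFMPP. The values were -0.059, -0.17 and -0.44 with MeOPP and 0.32, -0.36 and -0.092 with MDBP, so 1 MDBP pair was higher. The call (limma adjusted p = 0.0107) was lost without the pair terms (0.331) and without cluster 3 (0.0508).

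Pex19, Pex3 and Pex16 insert peroxisomal membrane proteins, Pex19 as the cytosolic chaperone and the others at the membrane. Pex19 stood at 5.34, 5.63 and 6.29 on the log2 scale in treated arrays, against 5.62, 6.08 and 6.52 in DMSO arrays (lowest, median and highest of 12 each). The groups overlapped, with 6 of 12 treated arrays below the lowest control. Its changes were -0.42, -0.42 and -0.83 with BZP and -0.60, -0.32 and -0.28 with TFMPP. They read -0.23, -0.31 and -0.15 with MeOPP and -0.23, -0.27 and -0.43 with MDBP, all below 0, with a mean of -0.37 ± 0.051 (SE, n = 12 pairs; limma adjusted p = 5.02e-05, and 0.0707 without the pair terms). Pex16 changed by -0.22 ± 0.061 (limma adjusted p = 0.0172), a call lost without the pair terms (0.335), with 1 value per control cluster (0.0751) and without cluster 3 (0.0963) or 4 (0.051). Its second probe set, with a mean log2 value of 5.01, stood at -0.060 and did not pass (limma adjusted p = 0.392). Pex3 stood at -0.16 ± 0.068 (limma adjusted p = 0.109), and without the first MeOPP pair it passed, at 0.00851.

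Pex13 and Pex14 form the docking site for cargo receptors. Pex13 stood at 9.25, 9.51 and 9.85 on the log2 scale in treated arrays, against 9.54, 9.80 and 9.91 in DMSO arrays (lowest, median and highest of 12 each). The groups overlapped, with 7 of 12 treated arrays below the lowest control. Its changes were -0.31, -0.51 and -0.31 with BZP and -0.10, -0.061 and -0.056 with TFMPP. They amounted to -0.090, -0.38 and -0.032 with MeOPP and -0.26, -0.32 and -0.31 with MDBP, small but all below 0, with a mean of -0.23 ± 0.045 (limma adjusted p = 0.00143). Pex14 stood at -0.18 ± 0.071 (limma adjusted p = 0.0851) and passed without the second BZP pair (0.0131), without the first MDBP pair (0.0438), without cluster 2 (0.0153) and after repeated quantile normalization (0.0458).

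Of the cargo receptors Pex7 fell and Pex5 did not pass the test. Pex5, the receptor for most matrix enzymes, stood at 0.010 ± 0.063 (limma adjusted p = 0.941), and its second probe set at 0.035. Pex7, the receptor for the few enzymes with the amino-terminal signal, among them Phyh and Agps, changed by -0.17 ± 0.041, lower in 11 of 12 pairs (limma adjusted p = 0.00506). The Pex7 call was lost without the pair terms (0.643), with 1 value per control cluster (0.123) and without cluster 1 (0.0962).

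Of the 4 factors that recycle the receptors Pex6 fell. Pex6, an ATPase that extracts Pex5 from the membrane, stood at 5.59, 5.90 and 6.27 on the log2 scale in treated arrays, against 5.79, 6.05 and 7.01 in DMSO arrays (lowest, median and highest of 12 each). The groups overlapped, with 3 of 12 treated arrays below the lowest control. Its changes were -0.49, 0.062 and -0.95 with BZP and -0.18, -0.0043 and 0.0030 with TFMPP. The others were -0.080, -0.12 and -0.029 with MeOPP and -0.20, -0.34 and -0.40 with MDBP. Its mean was -0.23 ± 0.067 (limma adjusted p = 0.0219), and the call was lost without the pair terms (0.297), with 1 value per control cluster (0.108), without the first TFMPP pair (0.055) and without cluster 1 (0.146), 3 (0.0841) or 4 (0.0553). Pex26, its membrane anchor, stood at 0.11 ± 0.051, and the ubiquitin ligases Pex2 and Pex10 at -0.086 ± 0.054 and 0.11 ± 0.062. None of these 3 passed (limma adjusted p = 0.169, 0.309 and 0.228). Pex5l, at -0.060 ± 0.066, did not pass either (adjusted p = 0.599).

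Metabolic genes fell with every drug. Of 30, 17 fell under BZP, 12 under TFMPP, 13 under MeOPP and 12 under MDBP. Among all genes the share that fell was 5.96 percent with BZP, 1.71 percent with TFMPP, 4.52 percent with MeOPP and 5.05 percent with MDBP. The metabolic medians were -0.42, -0.46, -0.41 and -0.36 in the same order of drugs. Agps alone was called higher, with BZP and with MDBP, where 6.66 and 4.68 percent of all genes were. Under TFMPP and MeOPP limma called 0 metabolic genes higher, against 0.872 and 3.45 percent of all genes. At an unadjusted p under 0.05, 0 and 2 metabolic genes were higher, with no share of all genes given at that threshold. The genes Hao2, Dao, Decr2, Agxt, Hacl1, Pecr, Phyh, Eci2 and Hsd17b4 fell with each of the 4 drugs, 9 of 30 metabolic genes, while 0 of 14 Pex genes and 1.42 percent of all genes did so. In all 12 pairs 17 of 30 metabolic and 3 of 14 Pex genes were lower, against 5.30 percent of all genes. Higher in all 12 pairs were 2 of 30 metabolic and 0 of 14 Pex genes, against 7.36 percent of all genes.

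Of the Pex genes 5 of 14 fell under BZP, 0 under TFMPP, 1 under MeOPP and 1 under MDBP by limma. At an unadjusted p under 0.05 these were 8, 5, 3 and 4. No share of all genes is given at that threshold, so these unadjusted counts show nothing particular to Pex genes. The genes were Pex11a, Pex19, Pex13, Pex6 and Pex7 under BZP, and Pex11a under MeOPP and MDBP. Their medians were -0.31 under BZP, -0.14 under TFMPP, -0.11 under MeOPP and -0.15 under MDBP.

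Single drugs rest on 3 pairs each, and their counts depended on these. Without the pair terms limma called 0 metabolic and 0 Pex genes lower with every single drug, and of all 14217 genes it called 24 under BZP, 1 under TFMPP, 9 under MeOPP and 21 under MDBP in either direction. Without 1 pair of the same drug, the metabolic count was 2 (without pair 1), 5 (pair 2) or 4 (pair 3) with TFMPP and 6 (pair 1) or 8 (pair 2) with MeOPP. With BZP it was 10 without pair 3. Over all genes the calls under TFMPP numbered 94, 137 and 115 without these pairs, against 367 with all. Those under MeOPP numbered 484 and 496, against 1134, and those under BZP 961 without pair 3, against 1795. The Pex count with BZP was 3 without pair 1 and 2 without pair 3 of BZP, and 3 without any 1 of the TFMPP pairs; over all genes 1561 were called under BZP without its pair 1, and 1626 to 1681 without a TFMPP pair. The rise of Agps was not called with BZP without any 1 of the BZP pairs, nor with MDBP without pair 2 or 3 of MDBP, pair 1 of BZP or of MeOPP, or any 1 of the TFMPP pairs.

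**Figure D4:**
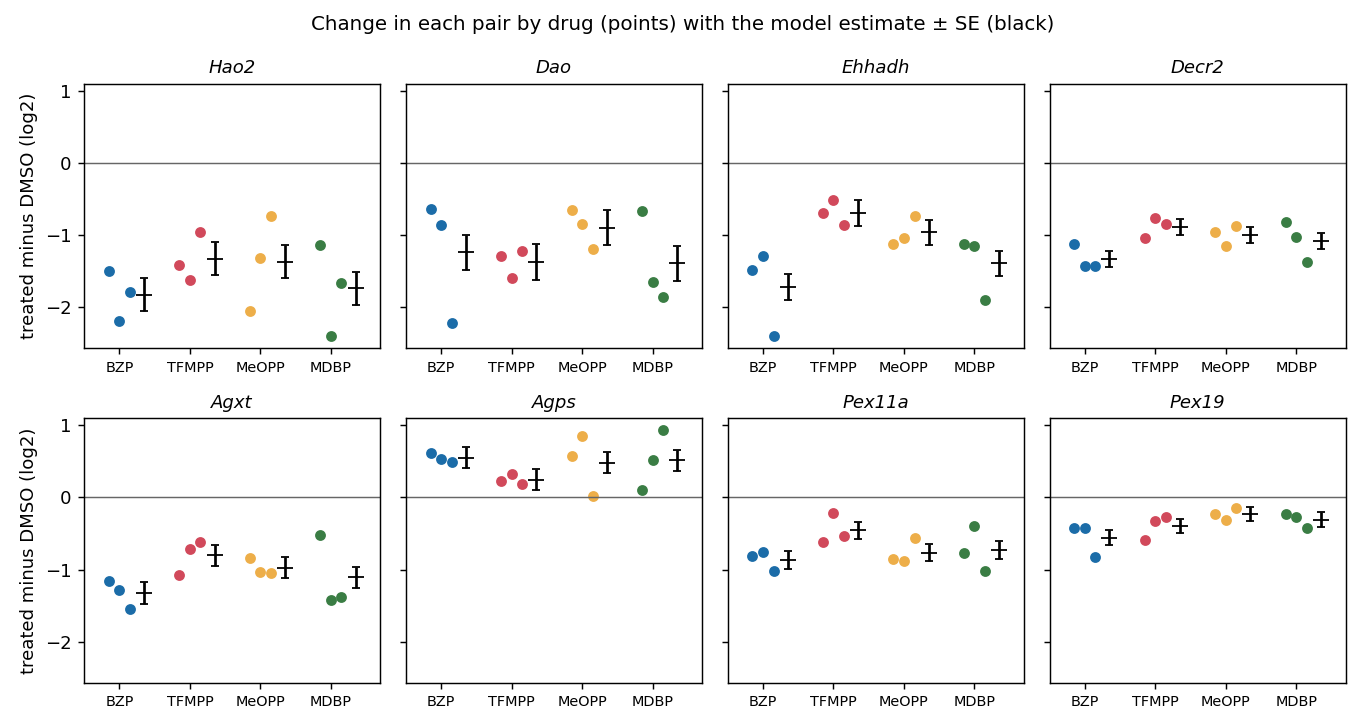
Change in each pair (points, pairs 1 to 3 from left to right) with the model estimate ± SE (black) on the log2 scale for 8 genes under each drug. Ehhadh has estimates of -1.73 under BZP, -0.69 under TFMPP, -0.97 under MeOPP and -1.40 under MDBP, and the points of Agps lie above 0 in all 12 pairs.

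No member differed between drugs in limma, for any of 6 differences, which does not show that the drugs act alike. The molar doses differed, so these differences compare the drugs at their labelled EC20 and not at matched concentrations. Control clusters differed as well. The third pairs of BZP and MDBP came from cluster 3, and those of TFMPP and MeOPP from cluster 4. The second MDBP pair came from cluster 5, and the second pairs of the other drugs from cluster 2. In such pairs drug and cluster cannot be told apart. Only TFMPP and MeOPP drew on the same clusters in every pair. At an unadjusted p under 0.05, 7 of 44 genes differed for BZP minus TFMPP, 5 for BZP minus MeOPP, 0 for BZP minus MDBP, 2 for TFMPP minus MeOPP, 3 for TFMPP minus MDBP and 1 for MeOPP minus MDBP. At an adjusted p under 0.05, 13 of all 14217 genes differed between BZP and TFMPP (0.0914 percent) and 0 in each other difference. A share of all genes at an unadjusted p is not given here, so the unadjusted counts show nothing particular to these 44 genes. Of the 44 members Ehhadh had the widest difference for BZP minus TFMPP, BZP minus MeOPP and TFMPP minus MDBP. By control cluster, Ehhadh changed by -2.15 in the pairs of cluster 3 and by -0.80 in those of cluster 4, so these differences may be of drug or of cluster. For Ehhadh, BZP minus TFMPP was -1.03 ± 0.25 (SE; 95 percent interval -1.57 to -0.50; limma adjusted p = 0.322), and BZP minus MeOPP was -0.76 ± 0.25 (SE; 95 percent interval -1.30 to -0.22; limma adjusted p = 0.623). TFMPP minus MDBP was 0.70 ± 0.25 (SE; 95 percent interval 0.16 to 1.24; limma adjusted p = 0.667). Dao was widest for TFMPP minus MeOPP (-0.48) and MeOPP minus MDBP (0.49), and Ephx2 for BZP minus MDBP (-0.44). Between the benzylpiperazines, BZP minus MDBP for Ehhadh was -0.33 ± 0.25 (SE; 95 percent interval -0.87 to 0.21; limma adjusted p = 1). Between the phenylpiperazines, TFMPP minus MeOPP for Ehhadh was 0.27 ± 0.25 (SE; 95 percent interval -0.27 to 0.81; limma adjusted p = 0.974). For Pex11a, BZP minus TFMPP was -0.41 ± 0.17 (SE; 95 percent interval -0.77 to -0.051; limma adjusted p = 0.745).

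The level of several metabolic genes varied widely among the controls. In the controls of cluster 3, 22 of 30 metabolic genes and 6 of 14 Pex genes had their highest level, as did 39.6 percent of all genes. Dao averaged 8.38 in cluster 3 and 5.39 to 6.56 in the others. Acot4 averaged 8.66 in cluster 3 and 5.93 in cluster 2. Ehhadh averaged 8.53 in cluster 3 and 6.11 in cluster 4. Hao2 differed, with its highest mean in cluster 5 (8.53) and its lowest in cluster 4 (5.81). Prdx5 spanned 0.11 over the 12 controls, Pex13 0.37 and Dao 3.54. The third BZP pair, from cluster 3, had the lowest medians of both lists, at -0.63 for metabolic and -0.38 for Pex genes.

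Markers of other liver cells were measured in the same comparison. Of 7 markers of Kupffer cells and leukocytes, Cd68 rose and Clec4f, Adgre1 and C1qa fell, with a mean log2 level of 4.614 to 5.795 over treated arrays and 4.667 to 6.021 over DMSO arrays. Of 7 stellate cell markers, Rgs5 fell and the means were 4.4 to 5.26 in treated and 4.547 to 5.166 in DMSO arrays. Of 5 endothelial markers limma called 0 (1 at an unadjusted p under 0.05), at 3.983 to 5.857 in treated and 3.989 to 5.953 in DMSO arrays. Of 4 cholangiocyte markers it called 0 (0 at an unadjusted p under 0.05), at 4.546 to 4.775 in treated and 4.556 to 4.903 in DMSO arrays. Their part in the changes of peroxisomal genes was not tested.

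Most further peroxisomal genes, outside the members, fell as well. Of 40 listed, 33 had a probe set, of which 21 fell and 3 rose, with a median of -0.25. The deepest falls were those of Acox2, a branched-chain oxidase of bile acid synthesis (-1.70 ± 0.090), Pxmp2, a membrane channel protein (-1.22 ± 0.079), and Xdh, the xanthine dehydrogenase (-0.91 ± 0.067). Those that rose were Gstk1, a glutathione transferase (0.83 ± 0.10), and the mevalonate pathway kinases Pmvk (0.52 ± 0.069) and Mvk (0.46 ± 0.076). Of the fission factors on this list, which act on peroxisomes and mitochondria, Fis1 fell (-0.25 ± 0.066; limma adjusted p = 0.0095), while Dnm1l (0.079 ± 0.068; adjusted p = 0.482) and Mff (0.12 ± 0.050; adjusted p = 0.0927) did not pass. In mitochondrial beta-oxidation 15 of 17 genes fell and 0 rose by limma (0 at an unadjusted p under 0.05), with a median of -0.63. These counts too stand beside 11.9 percent of all genes that fell and 18.0 percent that rose.

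Among 10 regulators, Ppara itself stood at -0.10 ± 0.058 (limma adjusted p = 0.25). Its partner receptors moved both ways, with Rxrb at 0.19 ± 0.062 (adjusted p = 0.0329), Rxrg at -0.30 ± 0.064 (adjusted p = 0.00228) and Rxra at -0.046 ± 0.057 (limma adjusted p = 0.655). The coactivators Ppargc1a and Ppargc1b fell in the mean of the 4 drugs, by 0.39 and 0.38, and Ppargc1a was dim, with a mean log2 value of 3.75. Med1 stood at 0.016, Ncor1 at 0.082, Ppard at -0.11 and Pparg at -0.070. None of these passed (limma adjusted p = 0.878, 0.196, 0.193 and 0.488). Ppargc1b changed by -0.53 with BZP, -0.48 with MeOPP and -0.55 with MDBP, and stood at 0.026 with TFMPP (limma adjusted p = 0.978). Of all 14217 genes, 0 were called for TFMPP minus MeOPP or TFMPP minus MDBP, so no difference between these drugs is shown for Ppargc1b. The difference BZP minus TFMPP is not given here for this gene.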

How the data were processed

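Expression was measured in 24 samples of rat hepatocytes on an Affymetrix rat array, from 100 ng of total RNA per the labels. The deposited table holds log2 values. The submitters' processing notes name RMA, with a version not given in the sources used here. RMA corrects background, normalizes by quantiles and summarises probe sets, which compresses changes of dim genes. Array medians lay at 4.448 to 4.519, and values were used as deposited. Arrays have no read depth, and their number limits the precision. Of 31099 probe sets, 57 controls were left out. The platform annotation gave 1 symbol to 20826 probe sets, several to 436 and none to 9780, and gene identifiers changed 0 symbols.

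One linear model in limma 3.58.1 (R 4.3.3) held 12 pair terms and 4 drug terms, with 8 residual and 7.66 prior degrees of freedom. Two-sided moderated tests covered each drug, their mean and 6 differences, adjusted by Benjamini-Hochberg. The labels name each treated sample's control, and paired arrays deviated together from their group means (r from 0.612 to 0.802 over probe sets, in 12 of 12 pairs). Replicates of a group lie in different control clusters, so this r cannot tell the labelled control from another of its cluster. Control clusters come from average linkage of the 12 DMSO arrays, cut at 5; arrays correlated at 0.9943 to 0.9971 within and 0.9622 to 0.9919 between clusters. The fit was tested on simulated data. Members, lists and clusters were chosen with earlier results of these data known. Genes given with every pair are the 5 largest falls and 3 largest rises called in each list; others are given by their mean, and Eci2, Phyh and the fission factors were given in more detail after their values were seen. A planned search for protein targeting signals was not run, as no protein table was used here. Alternatives changed the pair terms, normalization, dim filter, probe set rule, prior, arrays and pairs. Plots used matplotlib 3.10.9 under Python 3.11.15.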

Additional observations from a re-analysis of the deposited data

Results flagged for a closer look

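Pex2 is the member whose 3 pairs moved one way with one drug and the other way with another. Its changes ran from -0.24 to -0.11 with TFMPP and from 0.042 to 0.26 with MDBP, a difference of -0.299 on the log2 scale for TFMPP minus MDBP. The limma test of that difference did not pass (adjusted p = 0.79). Such patterns were looked for in 44 genes and 6 pairs of drugs, and groups of 3 samples allowed no search for single outlying arrays.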

How the results depend on the processing

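The fall of metabolic genes in the mean of the drugs was stable in number, at 20 to 22 of 30 when any 1 pair was left out, against 21 with all pairs, and 12 with no pair terms (replicate block removed). Over all genes 3694 to 4174 were called without 1 pair and 1218 without the block, against 4248. For Pex genes the number that fell was 6 to 8 without 1 pair, 2 without the block, 4 with 1 value per control cluster and 4 without cluster 3. Metabolic genes that rose numbered 1 when any 1 pair or any 1 cluster was left out, and 1 with 1 value per cluster, because Prdx5 lost its call. Without the block each single drug had 0 metabolic and 0 Pex genes called in either direction, and 24, 1, 9 and 21 of all 14217 genes were called under BZP, TFMPP, MeOPP and MDBP. Without 1 pair, metabolic falls numbered 10 to 17 under BZP, 2 to 13 under TFMPP, 6 to 15 under MeOPP and 11 to 13 under MDBP. The calls over all genes moved too. They were 961 under BZP without its pair 3, against 1795, and 94 to 137 under TFMPP without 1 of its pairs, against 367. Under MeOPP they were 484 and 496 without its pairs 1 and 2, against 1134. Under MDBP they were 610 and 534 without its pairs 2 and 3, against 1383. Metabolic rises numbered 0 to 1 with BZP, MeOPP and MDBP. Pex falls numbered 2 to 7 with BZP, 0 to 1 with TFMPP (1 without pair 3 of BZP) and 1 to 2 with MDBP (2 without pair 2 of MeOPP). The 1 metabolic rise with MeOPP came without pair 3 of MeOPP or pair 1 or 3 of MDBP. With only the arrays of the drug, Pex falls were 1 with BZP and 1 with TFMPP, and metabolic rises with MDBP were 0. In that setting 717 of all genes were called under BZP, 726 under TFMPP and 989 under MDBP, against 1795, 367 and 1383. Among probe sets with a mean of at least 5, Pex falls were 2 with TFMPP and 3 with MDBP, and 1 metabolic gene rose with MeOPP. Of all genes, 466 were then called under TFMPP, 1634 under MDBP and 1345 under MeOPP. Repeated quantile normalization gave 2 Pex falls with MDBP and 1 metabolic rise with MeOPP, averaged probe sets gave 2 Pex falls with TFMPP and with MDBP, and the trend and robust prior gave 2 with MDBP. Over all genes, repeated normalization called 1362 under MDBP and 1182 under MeOPP. Averaged probe sets called 396 under TFMPP and 1573 under MDBP, and the trend and robust prior called 1448 under MDBP. Arrays centred on their medians kept all 44 directions and calls in the mean. Members that differed between drugs stayed at 0 without the block and after repeated normalization. Uncalled values near 0 changed sign: Abcd2 was 0.010 and 0.017 without clusters 2 and 4, Amacr 0.046 without cluster 3, and Pex5 -0.027 with 1 value per cluster, -0.011 without cluster 1 and -0.046 without cluster 2. Without 1 pair Amacr ranged from -0.064 to 0.016 and Pex5 from -0.046 to 0.058. The causes were not tested, apart from the fewer samples or probe sets that some alternatives hold by construction.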
